A study of Mus musculus with 8 samples.

Results

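The genes Cd79a, Cd79b, Igll1, Vpreb1, Vpreb3, Blnk, Pax5, Ebf1 and Rag1 encode parts of the pre-B cell receptor and proteins that set B lineage identity. Their probe sets were all those whose platform gene symbol was, or included among joined symbols, one of these 9 genes, which gave 13 of the 22690 probe sets on the arrays. The 9 were among 12393 genes named by a probe set with a single symbol. All 9 genes had a probe set that named them alone, and 1 probe set named Vpreb2 and Vpreb1 together. The samples were spleen-derived tumor cells from 3 nude mice (Tumor 1, Tumor 2 and Tumor 3) and the parental FL5.12 cells, a mouse pro-B line that depends on interleukin-3, with 2 Affymetrix Mouse Genome 430A 2.0 arrays per source. All 4 sources carried the same stably transfected genes, Bfl-1DC and p53DD, so no group lacked them, and the parental cells had been injected into a vein of the mice whose spleens later held the tumors. Nude mice lack T cells but keep B cells and myeloid cells, so host cells of the spleen could be present in tumor RNA. The labels give 1 culture protocol for all samples, which does not settle if the tumor cells had been in culture. The labels do not say that separate cultures gave the 2 parental arrays, whose spread may thus be technical. The purpose of the series was to find expression changes that arose while the tumors formed.

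The pre-B cell receptor is assembled when a developing B cell first makes a heavy chain. The heavy chain pairs with a surrogate light chain, built from the Igll1 and Vpreb1 proteins, and the complex signals through the paired chains encoded by Cd79a and Cd79b, whose tails are phosphorylated and recruit Syk and the adaptor encoded by Blnk. Ebf1 and Pax5 encode transcription factors that commit progenitors to the B lineage and act on many of these genes, and Rag1 encodes a subunit of the recombinase that cuts immunoglobulin genes for V(D)J joining.

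Values were the authors' MAS5 signal intensities, a linear scale on which each array had a trimmed mean of 150.06. A probe set was called over the floor on an array where its signal exceeded that array's 40th percentile, which lay at 17.1 to 20.6 on the tumor arrays and at 15.59 and 15.96 on the parental arrays. The signal of 1 probe set cannot be set against that of another as an amount of RNA, because probes differ in their response, so each change was taken within a probe set. Ranks on an array, the brightest members of a list and list sums, in which bright probe sets weigh most, describe signal and not relative amounts of transcripts. Changes were differences of log2(signal + 16), tumor minus parental, which understates the change of dim probe sets. They were tested with limma over the 14897 probe sets that were over the floor on at least 2 of the 8 arrays, with the mean of each tumor's 2 arrays as 1 value, and p-values were adjusted over all 14897. In bulk RNA, a lower signal from fewer cells of a type and one from less RNA per cell cannot be told apart, and the same holds for a higher signal.

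Promoter sequences show what lies at the start of genes that are bound by the same factors in B cells. RefSeq (GRCm38.p6) gave 9 promoter windows, each from 250 bases before to 50 bases after a start site, for 8 of the 9 genes, all but Cd79b. Cd79a is shown because it was over the floor on all 8 arrays, and Igll1 and Vpreb1 because their proteins form the surrogate light chain and their own probe sets were at or near the floor. Each is printed on the strand of its gene, and capitals mark matches to the EBF core CCCNNGGG or the E-box CAGGTG, searched on both strands, as was the octamer ATGCAAAT.
Cd79a, chr7:24897247-24897546, plus strand: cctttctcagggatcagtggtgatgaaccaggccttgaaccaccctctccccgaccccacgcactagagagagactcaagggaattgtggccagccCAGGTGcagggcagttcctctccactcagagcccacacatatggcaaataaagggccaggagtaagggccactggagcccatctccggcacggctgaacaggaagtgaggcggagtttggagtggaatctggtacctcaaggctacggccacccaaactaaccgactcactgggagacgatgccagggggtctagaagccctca
Igll1, chr16:16863936-16864235, minus strand: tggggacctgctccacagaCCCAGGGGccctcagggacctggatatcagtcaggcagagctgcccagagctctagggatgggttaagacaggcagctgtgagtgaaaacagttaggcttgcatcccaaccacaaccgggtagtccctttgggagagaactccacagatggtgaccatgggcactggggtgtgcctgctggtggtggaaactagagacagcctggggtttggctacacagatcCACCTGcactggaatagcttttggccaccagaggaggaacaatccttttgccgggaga
Vpreb1, chr16:16869206-16869505, minus strand: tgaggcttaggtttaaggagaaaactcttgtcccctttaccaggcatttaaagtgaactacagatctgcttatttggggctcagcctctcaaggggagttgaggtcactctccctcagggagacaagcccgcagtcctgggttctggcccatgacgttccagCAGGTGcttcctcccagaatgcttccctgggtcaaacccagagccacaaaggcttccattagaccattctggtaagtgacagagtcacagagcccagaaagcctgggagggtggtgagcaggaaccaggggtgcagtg
The Cd79a window held an E-box that began at base -154 from the start site, and the Vpreb1 window one at -88. The Igll1 window held an EBF core at -231 and an E-box at -8. Of the other windows, that of Rag1 held an E-box at -135, that of Blnk an E-box at -160 and the octamer at -130, and that of Vpreb3 an octamer at -45. No match lay in the Pax5 window or in either of the Ebf1 windows. Among 32851 promoter windows of this length, 13.7% held the EBF core, 20.2% the E-box and 1.74% the octamer, so the E-box in particular is common. A match is a description of letters and was not tested against signal. Only exact matches were marked, so a window with no match to a motif, such as that of Cd79a for the EBF core, may still hold a variant site.

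Of the 9 genes, 2 were clearly measured: the probe sets of Cd79a and Cd79b were over the floor on all 8 arrays, and Cd79b rose in the tumors. Of the 13 probe sets, 5 passed the filter on low values and were tested, 8 did not, and 7 were over the floor on no array. Limma called 1 of the 5 tested higher in tumors than in parental cells, where 0.497% of all probe sets tested were called higher. It called 0 of the 5 lower, where 30 of the 14897 tested were called lower and 0.698% in either direction. An unadjusted p under 0.05 was reached by 2 of the 5, Cd79b and Cd79a, and by 15.5% of all probe sets tested. With no filter all 13 had a p, and 4 were under 0.05 (Cd79b, Cd79a, Pax5 and the first of the Ebf1 probe sets), against 13.9% of all probe sets, with none of the 13 passing after adjustment.

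**Figure D1:**
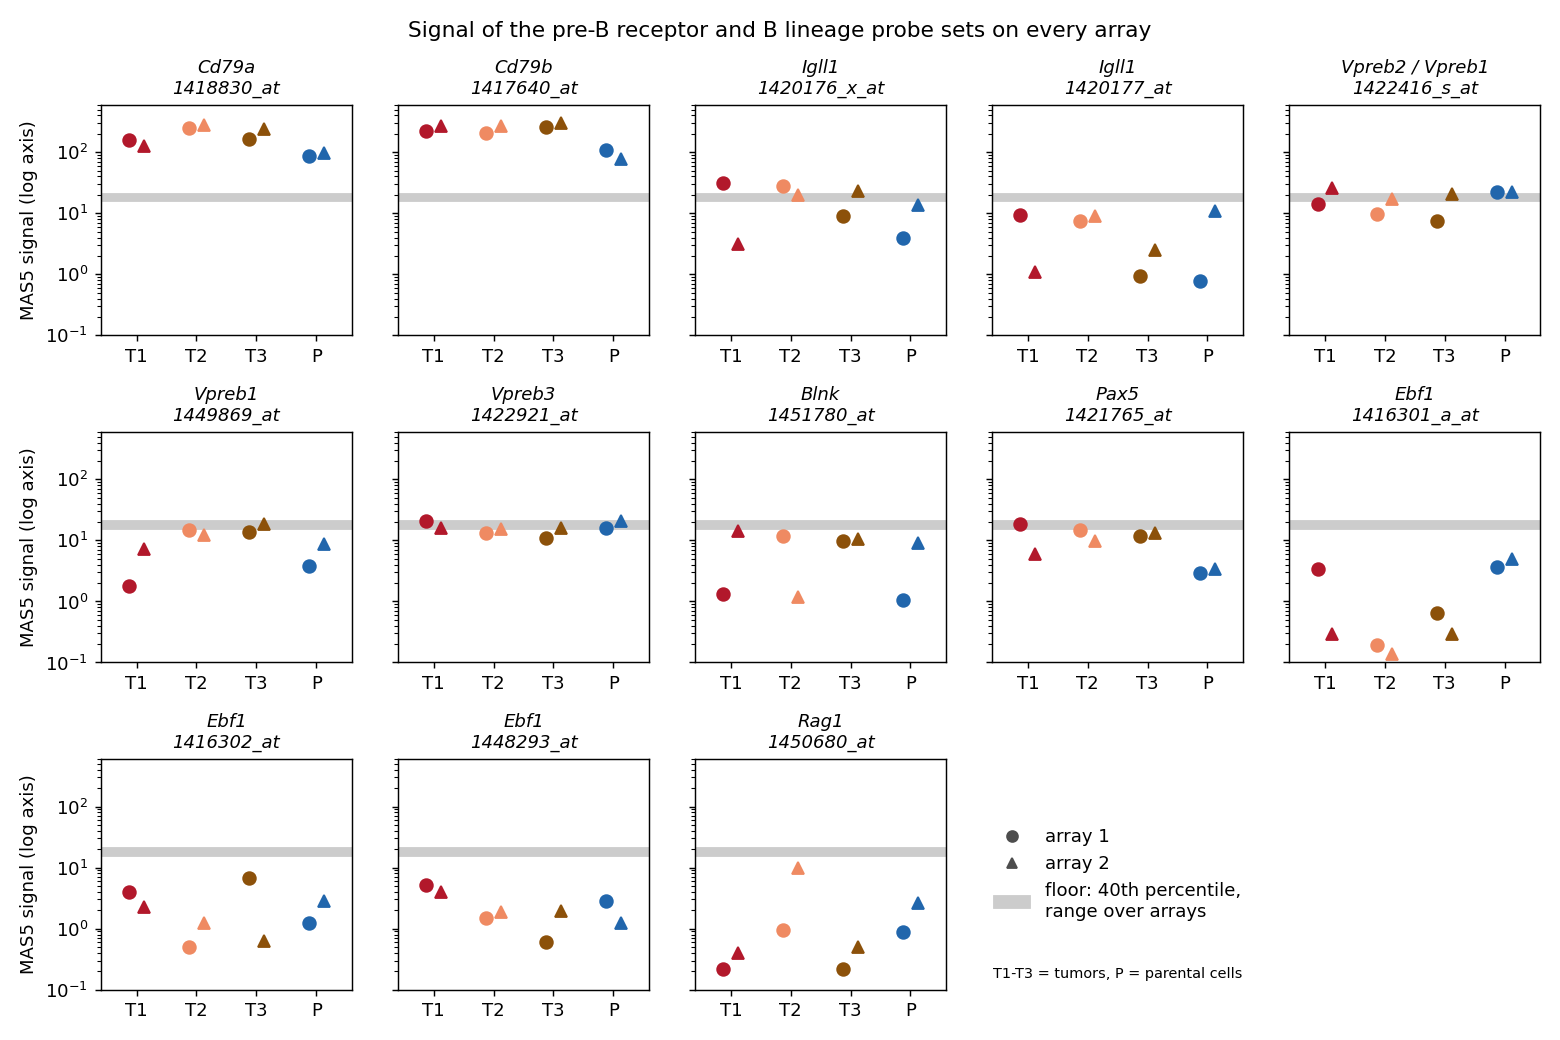
MAS5 signal (log axis) of each of the 13 probe sets on every array, with tumors (T1, T2, T3) left of parental cells (P); circles are first and triangles second arrays, and the grey band is the range of the floor over the 8 arrays. The Cd79a and Cd79b points all lie above the band, with every tumor array above both parental arrays, and most other points lie in or below it.

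Cd79b encodes the beta chain of the receptor's signalling pair (probe set 1417640_at, chromosome 11). Its signal was 221.7 and 272.9 for Tumor 1, 208.6 and 268.9 for Tumor 2, and 255.3 and 298.2 for Tumor 3, against 109.4 and 77.6 in parental cells. Every tumor array was above both parental arrays, and the 3 tumors lay close together. The mean signal was 254 ± 19.9 in tumors (SD, n = 3 tumors) and 93.5 ± 22.5 in parental cells (SD, n = 2 arrays), a ratio of 2.72. On its own array the probe set was brighter than 78.0% to 84.4% of all probe sets in tumors and than 67.2% and 61.9% in parental cells.

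The change of Cd79b was 1.31 ± 0.19 (log2, SE), with a limma adjusted p of 0.0414. The arrays are numbered 1 and 2 within each source. Across probe sets same-numbered arrays deviated together, but for Cd79b the parental pair deviated opposite to the tumor pairs. The change was 0.96 among first arrays and 1.66 among second arrays, since the second array was the brighter one in each tumor, by 0.28 in Tumor 1, 0.34 in Tumor 2 and 0.21 in Tumor 3, and the dimmer one in parental cells, by 0.42 on the log2 scale (second minus first, -0.42). The call in limma rested on both parental arrays, with a change of 1.52 without parental replicate 1 (adjusted p = 0.118) and 1.10 without parental replicate 2 (0.156). It also missed the threshold without Tumor 1 (1.33, 0.105), Tumor 2 (1.35, 0.103) or Tumor 3 (1.25, 0.123), and at 0.0507 with the replicate number as a block and the source as a random block, while the direction was the same in each.

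Cd79a encodes the alpha chain, which pairs with that of Cd79b (probe set 1418830_at, chromosome 7). Its signal was 157.6 and 127.7 for Tumor 1, 245.3 and 276.9 for Tumor 2, and 164.5 and 237.8 for Tumor 3, against 87.7 and 95.2 in parental cells. Here too every tumor array was above both parental arrays, but Tumor 1 lay nearer to the parental cells than Tumor 2 did. The mean signal was 202 ± 59.3 in tumors (SD, n = 3 tumors) and 91.5 ± 5.30 in parental cells (SD, n = 2 arrays), a ratio of 2.20. The change was 0.97 ± 0.25 (log2, SE) and did not pass over all tumors (limma adjusted p = 0.156). It was 0.96 among first and 0.99 among second arrays. With the replicate number as a block over all 8 arrays, a fit whose spread is that between duplicate arrays, the same change had an adjusted p of 0.0117 and 2 of the 5 tested probe sets were called; with the source as a random block as well, it had 0.205.

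**Figure D2:**
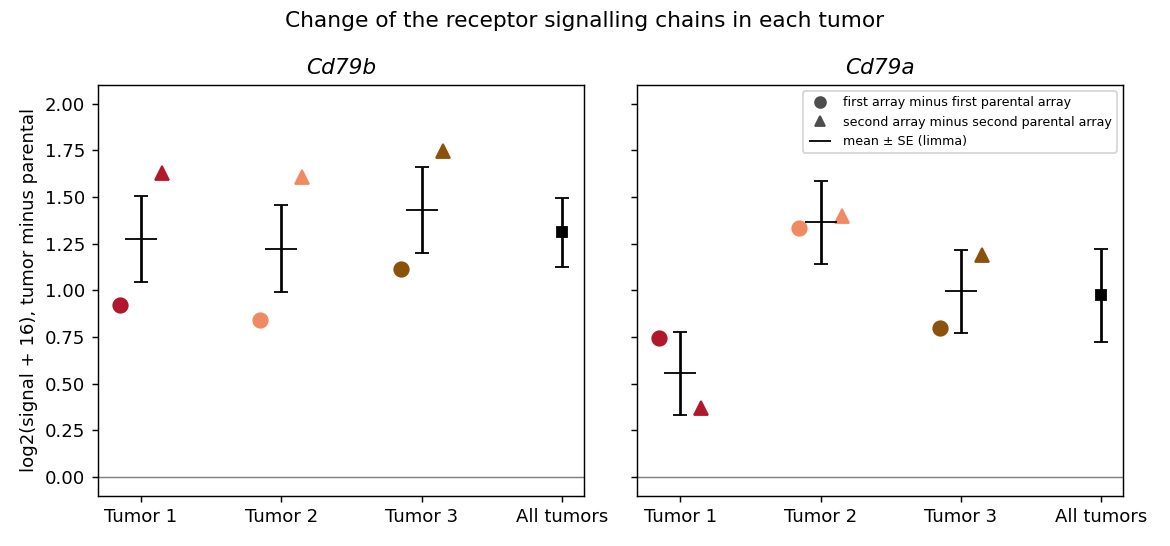
Change of log2(signal + 16) of Cd79b and Cd79a in each tumor minus parental cells; circles are first and triangles second arrays, each against the parental array of the same number, and bars are the mean ± SE from limma. All points lie above 0, second arrays lie above first arrays for Cd79b in every tumor, and Cd79a spreads from 0.56 in Tumor 1 to 1.37 in Tumor 2.

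Each tumor was also set against parental cells, with a spread taken from duplicate arrays. Cd79b passed in limma in Tumor 1 (1.27 ± 0.23, adjusted p = 0.0328) and in Tumor 3 (1.43, 0.0234), where 1.73% and 1.66% of all probe sets were called higher, and had 1.22 and 0.0575 in Tumor 2. Cd79a passed in Tumor 2 alone of the 3 (1.37 ± 0.22, 0.0316), where 0.973% were called higher, with 0.56 and 0.237 in Tumor 1 and 0.99 and 0.0739 in Tumor 3. With the replicate number as a block, Cd79b also passed in Tumor 2 (0.0231) and Cd79a in Tumor 3 (0.0260). A difference between the tumors was not shown for either: limma's F test over the 3 tumors called 0 of the 5 tested probe sets, where 1.26% of all tested were called, and 1 had an unadjusted p under 0.05, Cd79a, as had 11.7% of all tested. Its tumors spanned 0.81 (limma adjusted p = 0.287). The tumors' Cd79b changes spanned 0.21 (limma adjusted p = 0.940).

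The calls of single tumors rested on few arrays. That of Cd79b in Tumor 1 was lost without parental replicate 1 (1.49, limma adjusted p = 0.0671), parental replicate 2 (1.06, 0.169), either array of Tumor 1 (1.13 to 1.42, 0.0594 to 0.149) or either array of Tumor 3, which only removes an estimate of the spread (1.27, 0.0711). Cd79b in Tumor 3 was lost without parental replicate 2 (1.22, 0.148) or either of that tumor's arrays (1.32 to 1.54, 0.119 to 0.211). Cd79a in Tumor 2 was lost without either parental array (1.32 to 1.42, 0.159 to 0.162) or either of that tumor's arrays (1.28 to 1.45, 0.132 to 0.236).

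The signalling chains were not each other's nearest match across the arrays. Likeness was measured as the root mean square difference of log2(signal + 16), centred on each probe set's own mean, over the 8 arrays. Cd79b and Cd79a differed by 0.401. Of the 14897 probe sets tested, 440 lay nearer to Cd79b, and 734 nearer to Cd79a, than the other chain did. Nearest to Cd79b were Tmem50b (0.124), Plekhb1 (0.142) and Ifitm3 (0.160), an interferon-induced membrane protein gene, and nearest to Cd79a were Rnf208 (0.157), Mroh1 (0.178) and Cntd1 (0.181). Their changes in tumors, 1.12, 1.20 and 1.18 for the first 3 and 0.81, 0.92 and 0.99 for the others, did not pass in limma (adjusted p from 0.0538 to 0.137). These genes were picked by likeness over the same 8 arrays, so changes near those of the Cd79 genes follow from the choice.

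The surrogate light chain genes were at or near the floor. Igll1, which encodes the lambda5 chain (chromosome 16), had 2 probe sets. The first (1420176_x_at, a type that may also bind other transcripts) read 30.9 and 3.15 for Tumor 1, 28.2 and 19.7 for Tumor 2, and 9.01 and 22.9 for Tumor 3, against 3.92 and 13.7 in parental cells. It was over the floor on 3 of 6 tumor arrays and on 0 of 2 parental arrays, and duplicate arrays of Tumor 1 differed more than the groups did. Its change was 0.45 ± 0.23 (limma adjusted p = 0.403), made up of 0.90 among first arrays and 0.0045 among second arrays. It passed the filter only through tumor arrays. The second, 1420177_at, read 0.934 to 9.41 in tumors and 0.774 and 10.9 in parental cells, and was over the floor on no array.

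Vpreb1 encodes the other part of the surrogate light chain. The probe set shared by Vpreb2 and Vpreb1 (1422416_s_at) read 14.1 and 25.9 for Tumor 1, 9.83 and 17.0 for Tumor 2, and 7.37 and 20.4 for Tumor 3, against 22.0 and 22.5 in parental cells. It was over the floor on 1 tumor array and both parental arrays, the tumor arrays spanned the parental ones, and the change was -0.29 ± 0.17 (limma adjusted p = 0.439). The probe set for Vpreb1 alone (1449869_at) read 1.82 to 18.3 in tumors and 3.85 and 8.74 in parental cells, over the floor on no array. Vpreb3, a relative that binds nascent immunoglobulin chains in the cell (1422921_at, chromosome 10), read 20.5 and 16.2 for Tumor 1, 13.002 and 15.5 for Tumor 2, and 10.96 and 15.8 for Tumor 3, against 15.9 and 20.9 in parental cells. It exceeded the floor on the first array of Tumor 1 and the second parental array, with a change of -0.14 ± 0.16 (limma adjusted p = 0.734).

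Blnk, the adaptor downstream of Cd79a and Cd79b (1451780_at, chromosome 19), read 1.17 to 14.3 in tumors and 1.04 and 8.95 in parental cells, and was over the floor on no array. The groups overlapped.

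Among the transcription factor genes, Pax5 read low but higher on every tumor array. Its signal (1421765_at, chromosome 4) was 18.9 and 5.93 for Tumor 1, 14.5 and 9.64 for Tumor 2, and 11.99 and 13.2 for Tumor 3, against 2.91 and 3.43 in parental cells. The groups did not overlap, but only the first array of Tumor 1 exceeded its floor, so Pax5 was not tested among the filtered probe sets. Without a filter its change was 0.55 ± 0.10 and did not pass (limma adjusted p = 0.167). The 3 probe sets of Ebf1 (1416301_a_at, 1416302_at and 1448293_at, chromosome 11) read 0.139 to 3.43, 0.509 to 6.84 and 0.610 to 5.18 in tumors, against 3.74 and 4.91, 1.25 and 2.89, and 2.80 and 1.24 in parental cells. None was over the floor on any array. The first Ebf1 probe set was lower on every tumor array than in parental cells, a difference among values far below the floor.

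Rag1 (1450680_at, chromosome 2) read 0.215 to 9.92 in tumors and 0.878 and 2.67 in parental cells, and was over the floor on no array. In all, 5 of the 9 genes (Igll1, Blnk, Pax5, Ebf1 and Rag1) were at the floor in parental cells on every probe set, and 3 of them (Blnk, Ebf1 and Rag1) were on no array over it. The 8 probe sets that failed the filter read 0.139 to 18.9 in tumors and 0.774 to 10.9 in parental cells. All 3 tumor means lay above both parental arrays for 3 of the 5 probe sets tested (Cd79a, Cd79b and the first of Igll1), against 18.4% of all probe sets tested, and Igll1 had entered the test only through its tumor arrays. Among the 8 not tested, the same held for Pax5 alone, at readings at or near the floor.

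The parental cells gave signal over the floor for few of the markers by which pro-B cells are usually known. Besides the 5 genes above, Rag2, Dntt (the terminal transferase of V(D)J joining), Kit and Ly6d were over the floor on no array, and Il7r, the interleukin-7 receptor chain, was over it on 1 tumor array and on 0 parental arrays. Ptprc (the leukocyte antigen CD45), Spn (CD43), Cd72 and the transcription factor genes Myb and Spi1 were over the floor on all 8 arrays. The label pro-B therefore stands here as the submitters' name for the line, and the levels are those of MAS5 signals over a floor, which cannot show that a transcript is absent.

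Other genes of the same processes were described from 4 lists, and limma called none of their tested members in either direction. Of the 13 surface proteins of pro-B and pre-B cells, 5 were tested, 4 had a change above 0 and 2 had an unadjusted p under 0.05. Their median change was 0.76, where the median of all probe sets tested was 0.0079. Cd24a (1.03) entered the test only through 2 tumor arrays, so its part in that count and median adds no support. The other tested genes changed by 0.31 (Flt3), 0.76 (Spn), -0.13 (Ptprc) and 0.78 (Cd72). Of 18 B lineage transcription factors, 11 were tested, 8 were above 0 and 1 had an unadjusted p under 0.05 (median 0.15), and Pou2af1, Lef1, Bach2, Irf4 and Id3 were over the floor on no array. Ets1 and Bcl11a, both among those above 0, also entered the test only through tumor arrays. Of 11 genes of V(D)J recombination and end joining, 6 were tested, 3 were above 0 and 1 had an unadjusted p under 0.05 (median 0.0056). Of 17 signalling genes downstream of the receptor, 14 were tested, 9 were above 0 and 2 had an unadjusted p under 0.05 (median 0.099). Beside these counts, 15.5% of all probe sets tested had an unadjusted p under 0.05 in limma, so such genes are common.

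**Figure D3:**
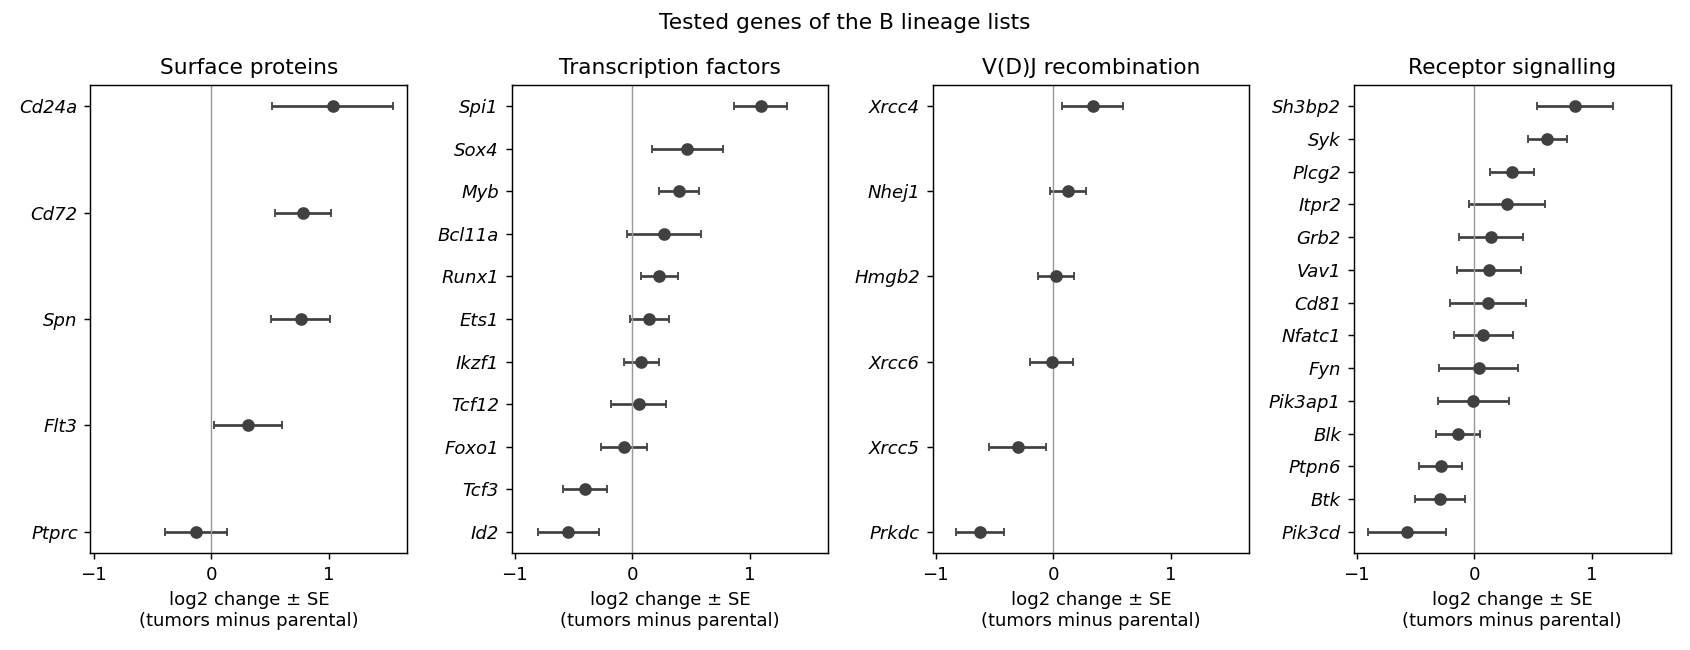
Change of log2(signal + 16), tumors minus parental cells, ± SE from limma, for the tested genes of the 4 B lineage lists, 1 probe set per gene. Most points lie near 0, Spi1 (1.09) and Sh3bp2 (0.86) lie highest in their panels, and Prkdc (-0.62) lies lowest in its panel.

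The genes of these lists named next were picked after their values were seen: the 6 with an unadjusted p under 0.05, then Btk, Plcg2 and Tcf3 for their place in the pathway. Spi1, which encodes PU.1, a factor of myeloid and early B cells, read 308 and 588 for Tumor 1, 234 and 373 for Tumor 2, and 196 and 355 for Tumor 3, against 134 and 152 in parental cells. Every tumor array was above both parental arrays, with a change of 1.09 ± 0.23 (limma adjusted p = 0.116). Syk, the kinase that binds the phosphorylated tails of the Cd79a and Cd79b chains, read 129 to 212 in tumors and 96.4 and 115 in parental cells (0.62 ± 0.17, limma adjusted p = 0.165). Sh3bp2, which encodes an adaptor that binds Syk, had a change of 0.86 (0.280). Btk and Plcg2, which act after Syk and Blnk, had changes of -0.29 (0.551) and 0.32 (0.458). The surface protein gene Cd72 had 0.78 (0.210) and Spn 0.76 (0.231), and Prkdc, the kinase subunit of end joining, had -0.62 (0.225). Tcf3, which encodes E-box-binding proteins of early B cells, had -0.40 (0.362).

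Some markers of other blood cells were higher in the tumors, as Cd79b was, and others were not. All 12 tested genes of the neutrophil and eosinophil list had a change above 0. So did 7 of 8 tested macrophage and monocyte genes and 2 of 4 tested T cell genes. In the first list, Elane, Ltf, S100a8, S100a9, Cd177, Lcn2, Epx and Prg2 were over the floor on no parental array. They entered the test only through tumor arrays, where they were high, so their part in the count of 12 adds no support. Csf1r (-0.65), Zap70 (-0.38) and Lat (-0.39) lay below 0 and were not called. The neutrophil and eosinophil list had 12 of 13 genes tested, 4 called higher (Epx, Mpo, Prg2 and Ngp) and a summed signal of 7776 to 16614 on tumor arrays and 330 to 845 on parental arrays, with Camp over the floor on no array. The macrophage and monocyte list had 8 of 13 tested, 3 called higher (Lyz2, Ccr2 and Cd14) and sums of 806 to 3247 in tumors and 185 to 895 in parental cells, with C1qa, C1qc and Marco over the floor on no array. The T cell list had 4 of 13 tested, 1 called higher (Cd3g) and sums of 1059 to 2774 in tumors and 303 to 411 in parental cells, with Cd3e, Cd247, Cd4, Cd8b1, Thy1 and Trat1 over the floor on no array. The 2 brightest of each list were Epx and Mpo, which changed by 7.05 and 6.19, Ccr2, which changed by 5.01, with Adgre1 at 0.72 (limma adjusted p = 0.566), and Cd3g, which changed by 4.46, with Cd3d at 4.21 (0.0728). Of all probe sets tested, 0.497% were called higher. Epx, Prg2, Ccr2, Cd14 and Cd3d were over the floor on no parental array, and Mpo on 1. The first 5 thus entered the test only through tumor arrays, where they were high, so their p-values add no support beyond the signals. The part of these cells in the signal of Cd79b, Cd79a, Spi1 or Syk was not tested.

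Markers of mature B cells and of other cell types were described in the same way. The part of host B cells in the signal of the Cd79 genes was not tested. Of 15 mature B cell genes, 12 had a probe set, 5 were tested, 0 were called by limma and 1 had an unadjusted p under 0.05, with a median change of 0.13. That gene, Fcrla, was over the floor on no parental array, and nor was Cd40, also tested. Both entered the test only through tumor arrays, so the p of Fcrla adds no support. Ms4a1, Cr2, Fcer2a, Cd83, Spib and Ly86 were over the floor on no array. The list's summed signal was 338 to 1096 on tumor arrays and 330 to 787 on parental arrays, and most of it came from Cd37 and Ltb, its brightest members. Plasma cell genes summed to 1857 to 2190 in tumors and 1480 to 2183 in parental cells, with 0 of 3 tested genes called and 0 with an unadjusted p under 0.05, and Jchain and Tnfrsf17 over the floor on no array. Most of that sum came from Xbp1, which read 1633 to 1893 in tumors and 1210 and 1547 in parental cells. Genes of MHC class II and dendritic cells summed to 96.9 to 157 in tumors and 89.3 to 96.7 in parental cells, with 0 of 2 tested genes called and 1 with an unadjusted p under 0.05. The latter, H2-DMa, was over the floor on 6 tumor arrays and on 0 parental arrays, so its p adds no support either. Erythroid genes summed to 345 to 1387 in tumors and 774 to 1100 in parental cells, with 0 of 7 tested called and 2 with an unadjusted p under 0.05. The share of all probe sets tested with an unadjusted p under 0.05 was 15.5%.

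**Figure D4:**
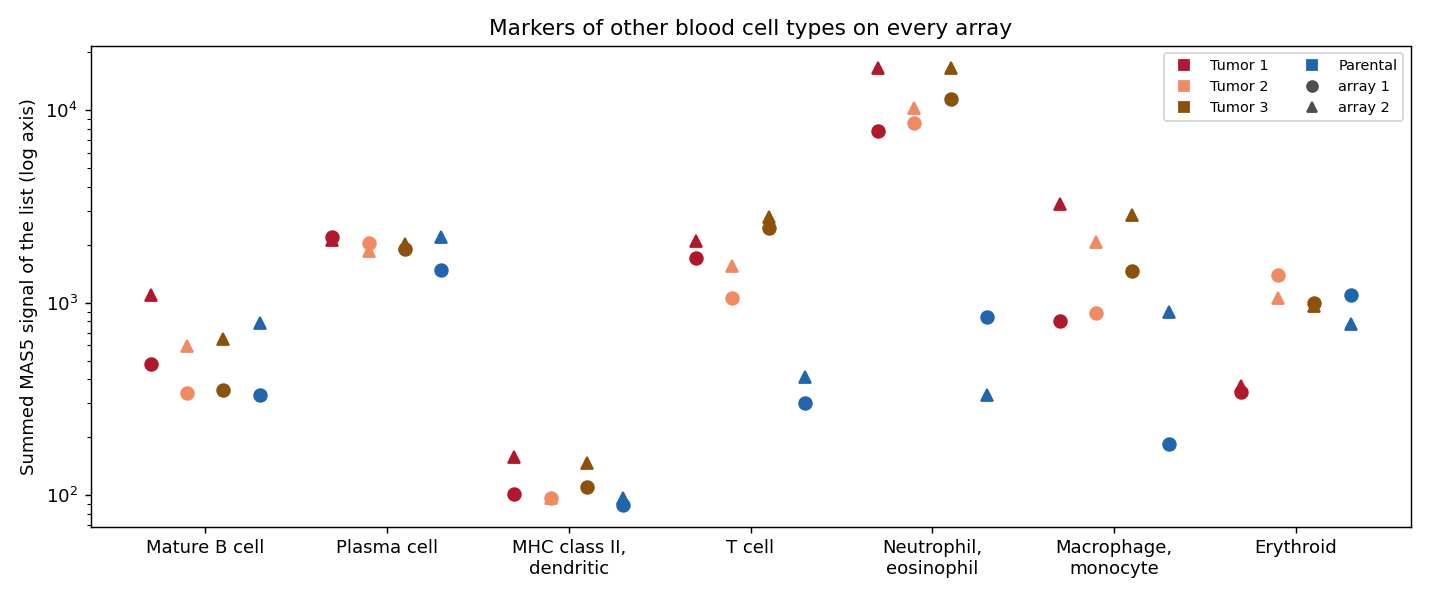
Summed MAS5 signal (log axis) of each marker list on every array, tumors left of parental cells within each list; circles are first and triangles second arrays. The neutrophil and eosinophil sums reach 16614 in tumors against at most 845 in parental cells, while the mature B cell sums of tumors (338 to 1096) and parental cells (330 to 787) overlap.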

How the data were processed

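The arrays measured total RNA of parental FL5.12 cells and of tumors from 3 mice. The deposited values are signal intensities per probe set on a linear scale, made by the authors with MAS5, per the submitters' processing notes, with settings not given in the sources used here. Genes were named by the platform annotation, with symbols brought up to date through gene IDs in RefSeq's GRCm38.p6 table: 20380 probe sets had 1 symbol, 691 several and 1555 none, 64 controls were left out, and 20351 matched by gene ID.

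From the deposited intensities, log2(signal + 16) was computed with no further normalization. Probe sets over their array's 40th percentile on at least 2 of 8 arrays were tested (14897), as probe sets and not genes, with limma 3.58.1 in R 4.3.3, two-sided, with Benjamini-Hochberg adjustment at 0.05. The main comparison set 3 tumor means against the 2 parental arrays. Single tumors, and the F test over tumors, used all 8 arrays with a mean per source, so that the spread comes from duplicate arrays (4 residual degrees of freedom). The number of arrays limits the precision.

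Arrays that share a number deviated together from the means of their sources, with correlations of 0.434 to 0.594 in the 6 pairs of sources, so the numbers in the labels pair the arrays, and a fit with the replicate number as a block was run. Other alternatives were pseudocounts of 1 and 64, filters, normalizations, 1 probe set per gene, a trended robust prior, removal of chromosome medians, single array numbers and leaving out samples. A block with the source as a random block was added after seeing the data. The fits were tested on simulated data. A symbol with several probe sets in a list was taken by the brightest with 1 symbol.

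Named were all probe sets of the 9 genes, up to 3 called genes of each list (for the neutrophil and eosinophil list all 4 are named), the 2 brightest of marker lists that moved with them and the 3 nearest profiles; others are said to be picked later. The genes and lists were chosen with earlier results of these data known. Promoters are RefSeq's (GRCm38.p6).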

Additional observations from a re-analysis of the deposited data

Results flagged for a closer look

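Cd24a, the gene of the heat stable antigen on the surface of pro-B and pre-B cells, was over the floor on the arrays of Tumor 3 alone. Its signal was 3.37 and 5.67 for Tumor 1, 6.22 and 13.8 for Tumor 2, and 53.6 and 62.3 for Tumor 3, against 0.593 and 0.492 in parental cells. Limma's F test over the tumors, with a spread from duplicate arrays, gave an adjusted p of 0.0106. Cd24a entered that test only through the 2 arrays of Tumor 3, the tumor in which it was high, so this p supports no difference beyond the values given. The change over all tumors, 1.03 ± 0.51, did not pass in limma (adjusted p = 0.391).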

How the results depend on the processing

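The rise of Cd79b had the same direction under every alternative run, but its call did not hold under most of them. The call held with quantile normalization, a stricter filter (60th percentile), median centring (1.20, limma adjusted p = 0.0465, with the median of all probe sets at -0.10), 1 probe set per gene, a trended robust prior, chromosome medians removed, all 8 arrays with a mean per source and the replicate block (adjusted p = 0.00549). It was lost with a pseudocount of 1 (1.44, limma adjusted p = 0.0754) or 64 (1.02, 0.0526), no filter (1.31, 0.0891), first arrays only (0.96, 0.427), second arrays only (1.66, 0.155) and the replicate block with the source as a random block (1.31, 0.0507). Leaving out a source or parental array gave 1.10 to 1.52 (0.103 to 0.156). With 1 parental array left, its spread was taken to be that of the tumors. Cd79a, at 0.97, passed with all 8 arrays (limma adjusted p = 0.0354) and with the replicate block (0.0117). Of the 13 probe sets, 1 was called, 2 with all 8 arrays or the replicate block, and 0 with a pseudocount of 1 or 64, no filter, first or second arrays only, the random block, or any source or parental array left out. For single tumors the count of 1 became 0 in Tumors 1 and 2 with a pseudocount of 1 or no filter, 0 in Tumor 2 with median centring, and 2 in Tumors 2 and 3 with the replicate block, and ranged from 0 to 1 when an array was left out. Over all probe sets, 104 were called, against 45 with a pseudocount of 64, 22 with no filter, 65 with 1 probe set per gene, 489 with all 8 arrays, 1952 with the replicate block, 5 and 12 with first and second arrays only, and 9 to 94 with a source or parental array left out. The 2 larger counts come from fits whose spread is that between duplicate arrays; for the other changes the cause was not tested. The replicate block changed no other call of the 13 probe sets. Signals near the floor limit what can be said of the other 7 genes.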

Other observations

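Ighm, the heavy chain that pairs with the surrogate light chain in the pre-B receptor, had 15 probe sets, 11 of which named it alone. Of the 15, 3 were over the floor on all 8 arrays, 9 were over it on none, and limma called 0 of the 4 tested, of which 1 had an unadjusted p under 0.05 (1425247_a_at, with a change of 0.57 and an adjusted p of 0.201). The brightest, 1427351_s_at, read 298 and 447 for Tumor 1, 111.3 and 111.5 for Tumor 2, and 84.4 and 76.2 for Tumor 3, against 230 and 616 in parental cells. Tumors 2 and 3 lay below both parental arrays, Tumor 1 lay between them, and the change was -1.24 ± 0.64 (limma adjusted p = 0.407). A second, 1427329_a_at, read 188 and 320 for Tumor 1, 102 and 124 for Tumor 2, and 96.4 and 98.6 for Tumor 3, against 147 and 443 in parental cells (-0.81, limma adjusted p = 0.493). The third, 1427870_x_at, read 53.1 to 72.8 in tumors and 54.4 and 49.3 in parental cells. The duplicate parental arrays thus differed more than the group means did in the 2 brightest, and Ighm gave no call beside the rise of Cd79b.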
